A study of Homo sapiens with 9 samples.

Results

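Transcript levels of 10 named heat shock protein genes were described in cells of the Caco-2 line, which derives from a human colon adenocarcinoma and serves as an intestinal epithelium model. The genes were listed by name, with earlier results of these data known, and made up 10 of the 27668 genes in the table. They are the cytosolic chaperones HSP90AA1, HSP90AB1, HSPA8, HSPA1A, HSPA1B, HSPH1, DNAJB1 and HSPB1, and the mitochondrial pair HSPD1 and HSPE1. Poly(A) RNA was sequenced in 3 groups of 3 libraries. Every group received 10 µM lovastatin, a statin that blocks cholesterol synthesis, for 48 h in aMEM with 10% lipid-depleted serum. The first group had lovastatin alone, the second lovastatin with 10 µM SGA360, and the third lovastatin with 10 µM SGA315, both ligands of the aryl hydrocarbon receptor (AHR). No group without lovastatin was analysed here, so each ligand was measured on a lovastatin background. All libraries came from 1 cell line, and nothing in the labels says whether separate cultures were used. P-values therefore cover only the variation among these libraries, which may be technical.

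Heat shock proteins are molecular chaperones: they bind unfolded or partly folded proteins, keep them from clumping and pass them on for folding or disposal. HSP90 and HSP70 proteins work in turn in the cytosol with J-domain and co-chaperone partners, and the chaperonin of HSPD1 with its lid HSPE1 folds proteins imported into mitochondria. Many of these genes are driven by the transcription factor HSF1, which binds heat shock elements, inverted repeats of a short GAA unit. In unstimulated cells, AHR itself is held in the cytosol by an HSP90 complex. HSP90AB1 and HSPA8 are among the members made constitutively in most cells, while HSPA1A and HSPA1B are the classic heat-induced HSP70 genes.

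The promoter sequences below show the heat shock elements found near the starts of these genes, except for 2 further 2-unit words, 1 in HSP90AA1 (68 to 61 bases before the start) and 1 in the first window of DNAJB1. They are shown since the members differ in whether and how many units they hold. The windows run from 250 bases before to 50 bases after a RefSeq transcript start (GRCh38.p14), and all 10 genes matched, with 16 windows in all. Both strands were searched for the 2-unit words GAANNTTC and TTCNNGAA, for runs of 3 alternating units (5 bases each, so that 2-unit words overlap inside them), and for the AHR core GCGTG or CACGC. Capitals mark the heat shock element, and each line is written 5′ to 3′ on the strand of the gene.
HSP90AA1, chr14:102087112-102087141, minus strand: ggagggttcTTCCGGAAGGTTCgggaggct
HSP90AB1, chr6:44247769-44247798, plus strand: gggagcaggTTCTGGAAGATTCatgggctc
HSP90AB1, chr6:44247822-44247851, plus strand: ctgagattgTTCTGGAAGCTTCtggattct
HSPA8, chr11:123062346-123062375, minus strand: ggcgagcttGAAAGTTCCAGAAcgctgcgg
HSPA8, chr11:123062171-123062200, minus strand: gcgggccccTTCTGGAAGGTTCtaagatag
HSPA1A, chr6:31815426-31815455, plus strand: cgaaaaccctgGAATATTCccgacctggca
HSPA1B, chr6:31827622-31827651, plus strand: cgaaacccctgGAATATTCccgacctggca
DNAJB1, chr19:14518456-14518485, minus strand: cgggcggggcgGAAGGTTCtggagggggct
DNAJB1, chr19:14518426-14518455, minus strand: ggcgggctctgGAAGCTTCcgccggacggg
HSPB1, chr7:76302480-76302509, plus strand: ccttaacgagaGAAGGTTCcagatgagggc
HSPD1, chr2:197500061-197500090, minus strand: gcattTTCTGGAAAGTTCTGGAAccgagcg

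A 2-unit word was found in 8 of the 10 genes (9 of 16 windows), against 13.5% of all 35116 RefSeq windows of the same length. A 3-unit run was found in 4 genes, HSP90AA1, HSP90AB1, HSPA8 and HSPD1 (4 of 16 windows), against 0.49% of all windows. HSPA8 and 1 window of HSP90AB1 held 2 such runs, and the 18 capital bases of HSPD1 hold 4 units in a row. The windows of HSPH1 and HSPE1 held none of these words, which says only that these letters are not in those windows. HSPD1 and HSPE1 are transcribed away from each other, and the HSPE1 window shares 204 bases with the second window of HSPD1. The 4-unit run of HSPD1 lay 294 to 311 bases before the HSPE1 start, 44 bases outside the HSPE1 window. The AHR core was found in 4 of the 10 genes (10 of 16 windows), against 36.5% of all windows. These 4, HSP90AA1, HSP90AB1, DNAJB1 and HSPD1, are the genes with more than 1 window, so the count of windows weighs them more. The shares of all windows are per window, and no share per gene was counted for any of these words. By GENCODE 29, all or part of the printed stretches of HSP90AA1, HSPA8 and HSPD1 lies in exons of other transcripts of these genes, or of HSPE1 for the HSPD1 stretch.

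**Figure D1:**
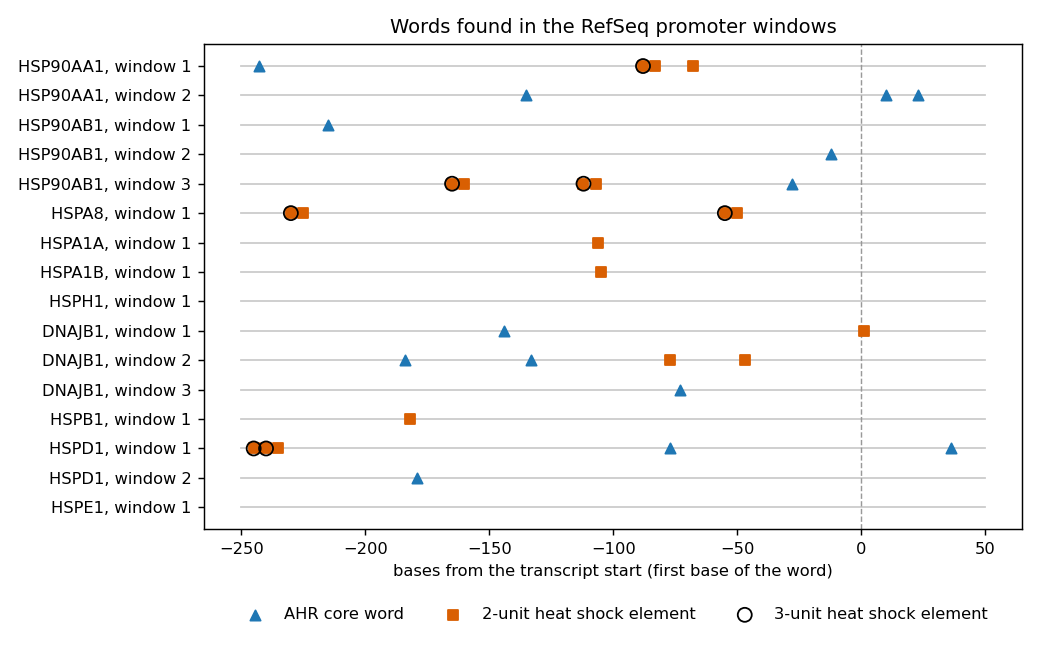
Positions of the searched words in each RefSeq promoter window of the 10 genes, in bases from the transcript start (x axis, first base of the word) with 1 row per window. Squares are 2-unit heat shock elements, circles 3-unit runs and triangles the AHR core; the rows of HSPH1 and HSPE1 hold no marker.

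With 1 transcript entry per gene, the libraries held 12334041 to 16870035 counts, and a count of 0 leaves room for 3 counts, or 0.174 to 0.236 CPM. CPM stands for counts scaled to a common library size, here by the TMM method. The enterocyte-like markers of the cell line, EPCAM, CDH1, KRT8, KRT18 and others, summed to 7346 to 7430 CPM with lovastatin alone, 5347 to 5764 CPM with SGA360 and 3925 to 4003 CPM with SGA315. Of these 10 markers, KRT20 and LGALS4 were too low to test, with 18 and 62 counts in all 9 libraries. With SGA360, 6 of the 8 tested markers were lower and none higher (2 higher when scaled to library totals alone). With SGA315, 6 were lower and 2, CDX2 and SI, were higher. KRT8 and KRT18 made up most of the summed CPM, so the sum mainly follows those genes. The 5 fibroblast markers summed to at most 0.826 CPM in any library, and the endothelial marker KDR had 0 counts. The leukocyte markers summed to 18.5 to 19.1, 10.9 to 14.8 and 9.77 to 12.0 CPM in the 3 groups, almost all of it from LYZ and CD14, and the 4 endothelial markers to 1.75 to 3.08, 1.68 to 2.52 and 2.50 to 3.09 CPM. Marker levels thus moved with the groups, and their part in the results below was not tested. In bulk samples such as these, fewer cells of a type and less RNA per cell cannot be told apart.

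Heat shock protein transcripts were lower with either ligand than with lovastatin alone. Of the 9 members with enough counts to test, 9 fell with SGA360 and 8 fell with SGA315, and none rose with either. A gene was called at an adjusted p under 0.05 in edgeR's quasi-likelihood test, with Benjamini-Hochberg adjustment over all 14654 genes tested, which is the source of every adjusted p below. These counts stand against a background in which a large part of the transcriptome was called: with SGA360, 31.4% of tested genes were higher and 31.4% lower, and with SGA315, 36.1% were higher and 33.2% lower. The median log2 fold change of the 9 members was -0.52 with SGA360 and -0.53 with SGA315, against 0.02 and 0.04 over all genes tested. Both comparisons use the same 3 lovastatin libraries. Scaling to library totals alone moved the median of all genes to 0.14 and 0.16, and that of the members to -0.40 and -0.41, with the same 9 and 8 members lower. That scaling also moved the split of all calls, from 50% to 67.3% higher with SGA360 and from 52.1% to 65.6% higher with SGA315.

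In each library the 10 genes were counted together as a share of all counts. The share was 0.725%, 0.724% and 0.731% with lovastatin alone, 0.507%, 0.498% and 0.514% with SGA360, and 0.558%, 0.558% and 0.584% with SGA315. The 3 groups did not overlap, and the share was lowest with SGA360. Most of it came from HSP90AB1, HSPA8, HSPD1 and HSP90AA1.

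HSP90AA1 encodes the stress-inducible form of HSP90, the chaperone that holds kinases and receptors, AHR among them, in a form ready for activation. Its level was 1393, 1380 and 1386 CPM with lovastatin alone, 717, 720 and 723 CPM with SGA360, and 669, 687 and 734 CPM with SGA315. All 6 ligand libraries lay far below the 3 lovastatin libraries, while the ligand groups overlapped. The fall was 48.1% with SGA360 (log2 fold change -0.95 ± 0.03 SE, adjusted p = 8.53e-41) and 49.8% with SGA315 (-0.99 ± 0.03, adjusted p = 3.57e-42).

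HSP90AB1 encodes the constitutive form of HSP90. It stood at 1886, 1935 and 1968 CPM with lovastatin alone, 1470, 1415 and 1458 CPM with SGA360, and 1679, 1624 and 1704 CPM with SGA315. The 3 groups did not overlap, with SGA315 between the others. The fall was 25.0% with SGA360 (log2 fold change -0.41 ± 0.03 SE, adjusted p = 4.03e-22) and 13.5% with SGA315 (-0.21 ± 0.03, adjusted p = 2.18e-10). Scaled to totals alone, the SGA315 change was -0.09 (adjusted p = 0.00169).

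The balance of HSP90AA1 to HSP90AB1 within a library was compared across the groups. There were 0.719 ± 0.018 counts of HSP90AA1 per count of HSP90AB1 with lovastatin alone (SD, n = 3), 0.497 ± 0.010 with SGA360 and 0.417 ± 0.017 with SGA315. No library of 1 group reached the range of another, and a two-sided exact permutation test gave p = 0.1 for each pair of groups, the smallest that 3 against 3 allows. The 2 transcripts are 75.9% identical over the aligned part but share no stretch of 50 bases. RefSeq names 5 pseudogenes of HSP90AA1 and 6 of HSP90AB1, so reads of either gene may have been split or lost.

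HSPA8 encodes the constitutive cytosolic HSP70 that folds new proteins and uncoats clathrin vesicles. Its level was 2174, 2175 and 2189 CPM with lovastatin alone, 1219, 1166 and 1219 CPM with SGA360, and 1459, 1459 and 1542 CPM with SGA315. The 3 groups did not overlap, and SGA360 gave the lowest values. The fall was 44.9% with SGA360 (log2 fold change -0.86 ± 0.03 SE, adjusted p = 1.18e-38) and 31.8% with SGA315 (-0.55 ± 0.03, adjusted p = 1.5e-28).

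HSPA8 has 2 transcript entries in the table, and the shorter encodes a truncated protein. The share of HSPA8 counts outside the shorter entry was 19.5%, 19.9% and 19.99% with lovastatin alone, 20.3%, 20.6% and 20.6% with SGA360, and 21.4%, 21.8% and 22.4% with SGA315. The groups did not overlap, although they differed by about 1 to 2 percentage points (exact permutation p = 0.1 for each pair, the smallest possible). This share and the count ratios were chosen after the values were seen.

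HSPA1A and HSPA1B, the heat-induced HSP70 genes, had few counts. HSPA1A had 1 count in all, in a library with lovastatin alone, and 0 in the others. HSPA1B had 26, 13 and 23 counts with lovastatin alone, 16, 6 and 14 with SGA360, and 16, 17 and 16 with SGA315, or 1.75, 0.976 and 1.49, then 0.965, 0.348 and 1.10, then 1.05, 1.19 and 1.21 CPM. All 3 groups overlapped. The transcripts of these genes are 98.6% identical over 2152 aligned bases, and 72.6% of the 50-base stretches of HSPA1A occur in HSPA1B, so the counts of either gene are uncertain. In GENCODE 29, 920 of the 2521 bases of HSPA1B also lie in exons of AL671762.1 on the same strand.

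HSPA1B was called lower with SGA360 (log2 fold change -0.87 ± 0.31 SE, adjusted p = 0.0126) but not with SGA315 (-0.31, 95% interval -0.89 to 0.27, adjusted p = 0.349). The SGA360 call rested on single libraries: without the lovastatin replicate 1 it was -0.70 (adjusted p = 0.0897), and without the SGA360 replicate 2 it was -0.48 (adjusted p = 0.195). It was also not called by DESeq2 (-0.86, adjusted p = 0.0676). With the 2 genes summed, the SGA360 change was -0.89 (adjusted p = 0.00973).

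HSPH1 encodes HSP110, a distant HSP70 relative that acts as a nucleotide exchange factor for HSP70. Its level was 287, 289 and 286 CPM with lovastatin alone, 195, 201 and 207 CPM with SGA360, and 195, 195 and 209 CPM with SGA315. The ligand groups overlapped each other and lay wholly below lovastatin alone. The fall was 30.1% with SGA360 (log2 fold change -0.52 ± 0.03 SE, adjusted p = 1.64e-24) and 30.5% with SGA315 (-0.53 ± 0.03, adjusted p = 6.49e-25).

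DNAJB1 encodes HSP40, the J-domain partner that stimulates HSP70's ATPase, and is a well known HSF1 target. Its level was 67.3, 67.7 and 66.1 CPM with lovastatin alone, 57.1, 56.1 and 55.0 CPM with SGA360, and 44.0, 48.5 and 48.6 CPM with SGA315. The 3 groups did not overlap, and here SGA315 gave the lowest values. The fall was 16.2% with SGA360 (log2 fold change -0.26 ± 0.04 SE, adjusted p = 8.05e-07) and 29.96% with SGA315 (-0.51 ± 0.05, adjusted p = 9.58e-16). Scaled to totals alone, the SGA360 change was -0.14 (adjusted p = 0.00415).

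HSPB1 encodes HSP27, a small heat shock protein that forms oligomers, holds unfolded proteins without ATP and binds actin filaments. Its level was 41.6, 43.0 and 40.2 CPM with lovastatin alone, 30.04, 31.0 and 32.6 CPM with SGA360, and 18.9, 19.2 and 19.5 CPM with SGA315. The groups formed 3 separate steps. The fall was 25.1% with SGA360 (log2 fold change -0.42 ± 0.06 SE, adjusted p = 8e-10) and 53.9% with SGA315 (-1.12 ± 0.06, adjusted p = 1.5e-25).

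HSPD1 encodes HSP60, the subunit of the barrel-shaped mitochondrial chaperonin. Its level was 1553, 1572 and 1581 CPM with lovastatin alone, 1178, 1189 and 1204 CPM with SGA360, and 1256, 1287 and 1340 CPM with SGA315. The 3 groups did not overlap. The fall was 24.1% with SGA360 (log2 fold change -0.40 ± 0.03 SE, adjusted p = 1.8e-21) and 17.5% with SGA315 (-0.28 ± 0.03, adjusted p = 8.44e-15). Scaled to totals alone, the SGA315 change was -0.16.

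HSPE1 encodes HSP10, the lid of that chaperonin, from the neighbouring gene. Its level was 219, 214 and 217 CPM with lovastatin alone, 94.0, 95.8 and 89.9 CPM with SGA360, and 93.6, 99.7 and 95.2 CPM with SGA315. The ligand groups overlapped each other, while every lovastatin library was far above both. The fall was 56.9% with SGA360 (log2 fold change -1.21 ± 0.03 SE, adjusted p = 7.34e-42) and 55.6% with SGA315 (-1.17 ± 0.03, adjusted p = 3.68e-41). Among all 14654 tested genes, HSPE1 ranked 95th from the lowest fold change with SGA360 and 178th with SGA315.

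The balance of the lid to its chaperonin within a library was also compared across the groups. Counts of HSPE1 per count of HSPD1 were 0.141, 0.136 and 0.137 with lovastatin alone, 0.0798, 0.0806 and 0.0746 with SGA360, and 0.0745, 0.0775 and 0.0711 with SGA315. The lovastatin libraries lay above all the others (exact permutation p = 0.1 against each ligand, the smallest possible), and the ligand groups overlapped (exact p = 0.2). Of the 950 bases of the HSPE1 transcript, 169 also lie in exons of HSPD1 on the opposite strand and 192 in exons of the read-through gene HSPE1-MOB4. Over all libraries HSPE1-MOB4 had 19820 counts, beside 17899 for HSPE1. How strand and reads with several matches were handled is not given in the sources used here. RefSeq names 28 pseudogenes of HSPE1, 22 of HSPD1 and 20 of HSPA8, so reads may have been split or lost for these genes. HSPE1 is also short, and the 1187 tested genes with transcripts under 1000 bases had median log2 fold changes of 0.00 with SGA360 and -0.02 with SGA315.

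**Figure D2:**
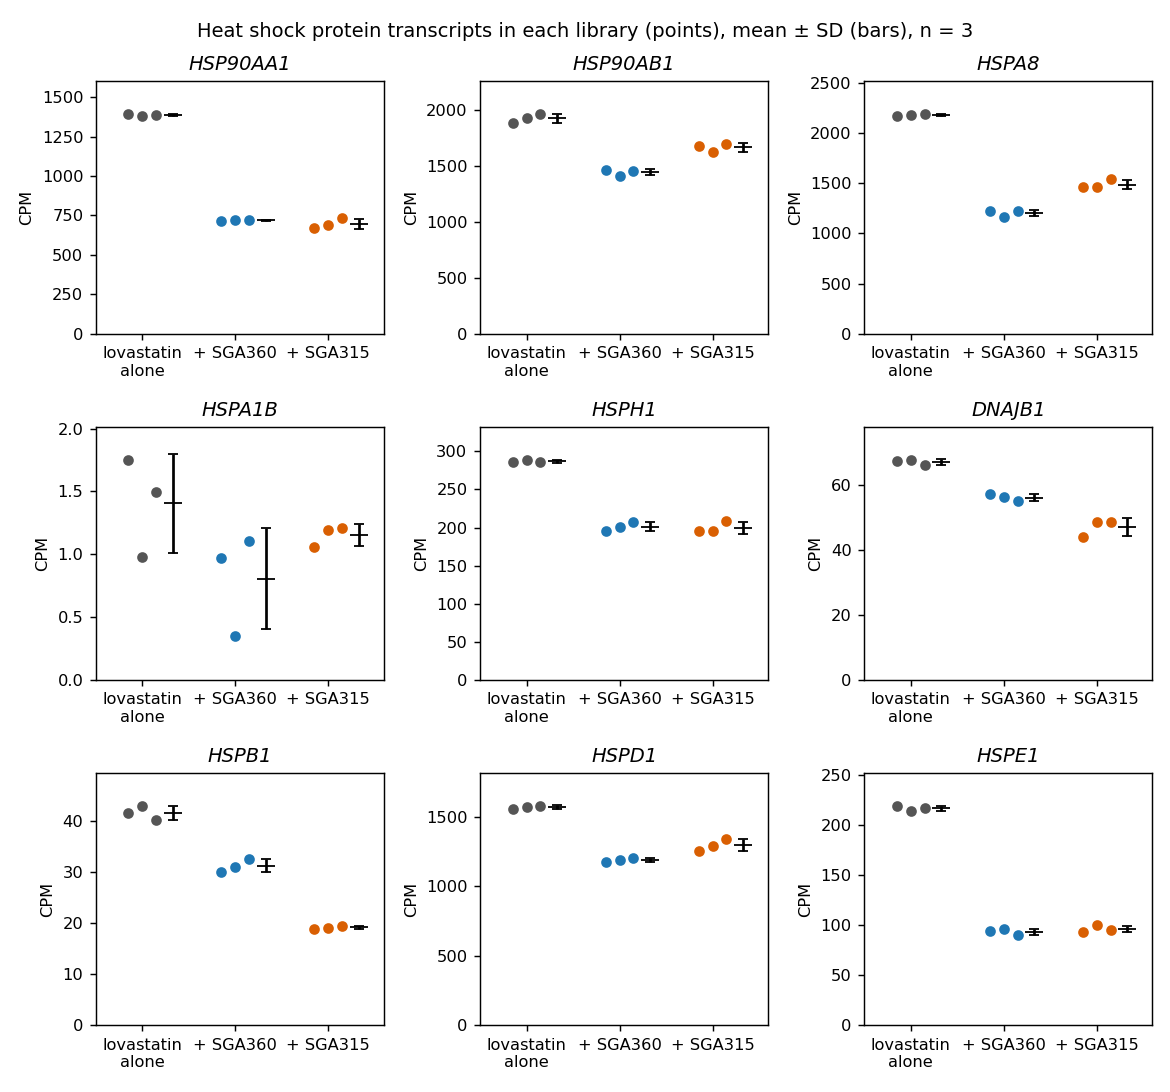
CPM of the 9 members with enough counts to test (y axis, from 0) in the 3 libraries of each group (points), with the mean and SD beside them. For HSP90AA1, HSPH1 and HSPE1 the ligand groups overlap each other below lovastatin alone, whereas HSPB1 and DNAJB1 are lowest with SGA315 and HSPA8 and HSP90AB1 lowest with SGA360.

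**Figure D3:**
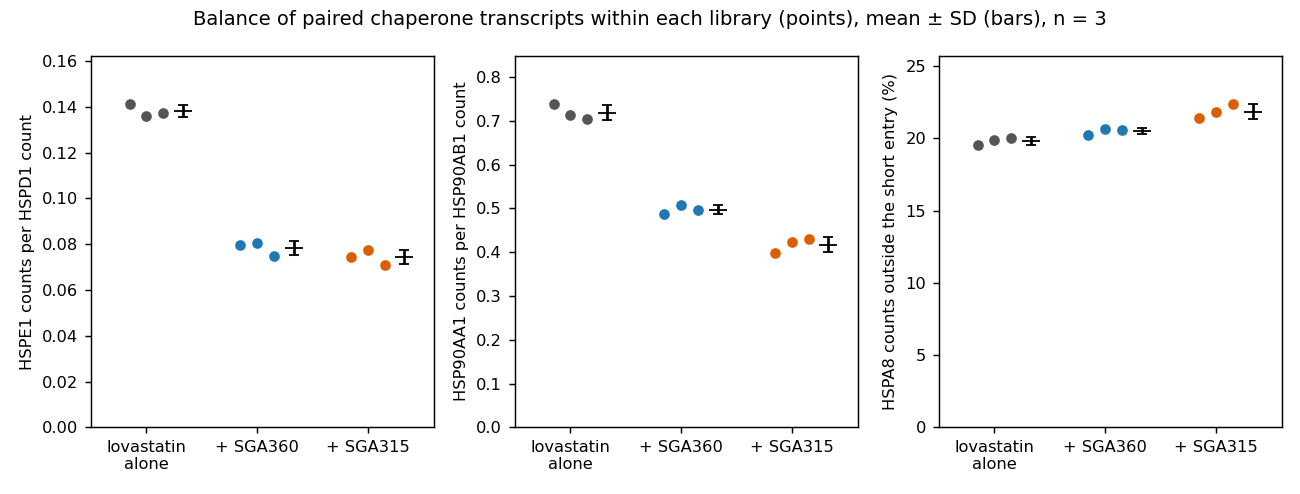
Counts of HSPE1 per count of HSPD1 (left), counts of HSP90AA1 per count of HSP90AB1 (middle) and percent of HSPA8 counts outside the shorter transcript entry (right) in each library (points), with the mean and SD. Both ratios were higher in the 3 lovastatin libraries than in any ligand library, while the HSPA8 share was within a range of 19.5% to 22.4%.

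To order the genes by level, CPM was divided by transcript length, as CPM per kilobase. A single length stood for each gene, so the order depends on that choice. The spread among libraries covers neither this choice nor reads lost to pseudogenes. With lovastatin alone, HSPA8 was first at 885 ± 3.5 CPM per kb (SD, n = 3), followed by HSP90AB1 at 747 ± 15.9, HSPD1 at 682 ± 6.1, HSP90AA1 at 395 ± 1.8 and HSPE1 at 228 ± 2.8. Much lower were HSPH1 at 55.3 ± 0.34 CPM per kb, HSPB1 at 45.8 ± 1.5, DNAJB1 at 29.6 ± 0.37 and HSPA1B at 0.558 ± 0.156. No neighbours in this order overlapped, but the counts of HSPA1B are uncertain, since HSPA1A shares much of its sequence.

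The order at the top changed with the ligands. With SGA360, HSP90AB1 led at 561 ± 11.1 CPM per kb, ahead of HSPD1 at 518 ± 5.6 and HSPA8 at 488 ± 12.4. With SGA315, HSP90AB1 at 646 ± 15.7 was followed by HSPA8 at 604 ± 19.5 and HSPD1 at 563 ± 18.5. Neighbours among these levels did not overlap between libraries. With SGA315, HSPB1 at 21.1 ± 0.36 CPM per kb and DNAJB1 at 20.8 ± 1.2 could not be told apart, since their ranges overlapped.

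The ligands were also compared directly at the same dose and time, 1 pair of compounds over 9 genes, with p-values adjusted over all genes tested. Of the 9 members, 2 were higher with SGA360 than with SGA315 and 3 were lower, against 21.8% higher and 20.9% lower over all genes. DNAJB1 (log2 difference 0.26 ± 0.05 SE, adjusted p = 5.79e-06) and HSPB1 (0.70 ± 0.07, adjusted p = 1.92e-14) were the higher ones. HSPB1 was 1.62 times as high with SGA360. HSPA8 (-0.31 ± 0.03, adjusted p = 2.18e-15), HSP90AB1 (-0.21 ± 0.03, adjusted p = 1.74e-09) and HSPD1 (-0.12 ± 0.03, adjusted p = 0.000127) were the lower ones. The ligand groups did not overlap for any of these 5 genes. Since the genes were picked here by their adjusted p, that is no separate support, and the share over all genes was not counted.

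The remaining 4 members were not called different between the ligands, which does not show that the ligands act alike. The 95% intervals of the log2 difference were -0.01 to 0.10 for HSP90AA1, -0.05 to 0.07 for HSPH1, -0.12 to 0.03 for HSPE1 and -1.22 to 0.10 for HSPA1B. The HSP90AA1 difference was called without the SGA315 replicate 3 (0.09, adjusted p = 0.00761). For the first 3 genes the intervals allow only small differences, and for HSPA1B a large one.

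**Figure D4:**
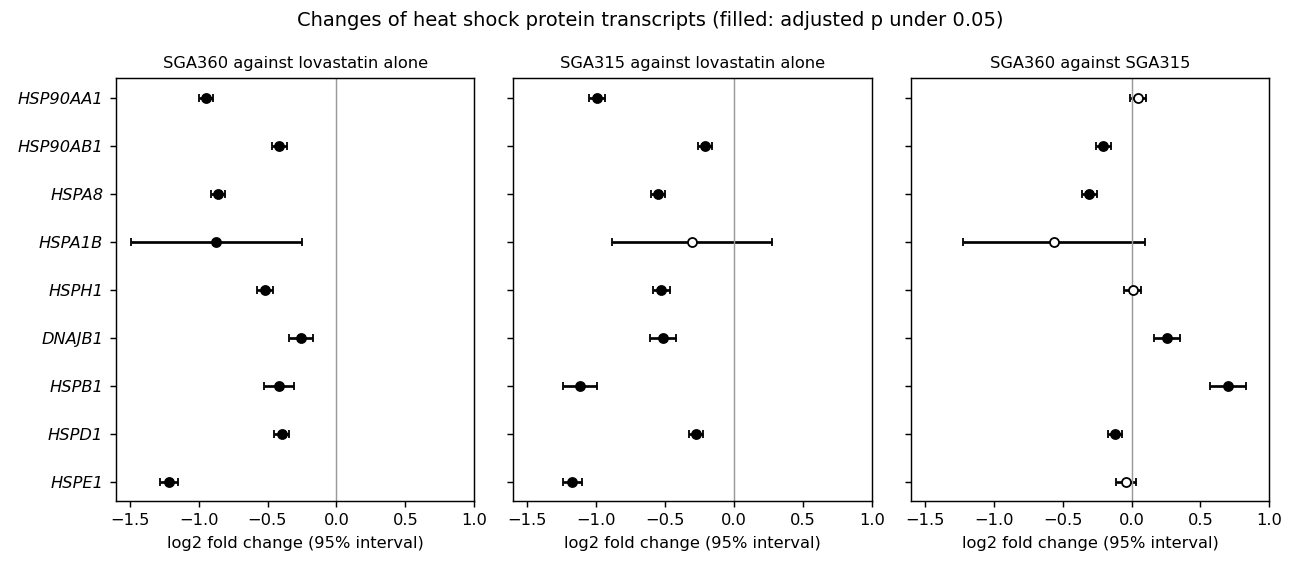
Log2 fold changes with 95% intervals (x axis) of the 9 tested members in each of the 3 comparisons (panels), filled where the adjusted p was under 0.05. In the left and middle panels all points lie below 0, and in the right panel HSPB1 and DNAJB1 lie above 0 and HSPA8, HSP90AB1 and HSPD1 below it.

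AHR, the receptor, stood at 77.2, 78.2 and 81.9 CPM with lovastatin alone, 70.6, 67.1 and 72.0 CPM with SGA360, and 52.2, 50.8 and 48.6 CPM with SGA315. The groups did not overlap, with SGA315 lowest. It was called lower with SGA315 (log2 fold change -0.65 ± 0.04 SE, adjusted p = 6.92e-21) and with SGA360 (-0.18 ± 0.04, adjusted p = 9.98e-05), the latter not when scaled to totals alone (-0.07, adjusted p = 0.142).

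Partners and relatives of the members were counted in lists, and the counts are read against the background shares above. Among 5 regulators of heat shock transcription, 1 was higher and 1 lower with SGA360, and 0 were higher and 1 lower with SGA315 (2 and 1, and 3 and 1, scaled to totals alone). HSBP1, a binding partner that dampens HSF1, fell with both (log2 fold changes -0.61 and -0.64). HSF1 itself rose with SGA360 (0.27, adjusted p = 7.29e-08) and was at 0.05 with SGA315 (adjusted p = 0.271). HSF2 was at 0.16 and 0.07 and was not called. Scaled to totals alone, HSF1 was called higher with SGA315 (0.18) and HSF2 with both (0.27 and 0.19). The median of all genes under that scaling was 0.14 with SGA360 and 0.16 with SGA315, so the SGA315 values lay close to it.

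Of 15 HSP90 co-chaperones, 12 were lower and 1 higher with SGA360 (median -0.28), and 11 lower and 1 higher with SGA315 (median -0.46). With scaling to totals alone, 10 were lower and 1 higher (median -0.16), then 11 lower and 2 higher (median -0.34). STIP1, which bridges HSP70 and HSP90, changed by -0.46 with SGA360 and -0.70 with SGA315 (log2). NUDC, a dynein-linked co-chaperone, changed by -0.62 and -0.86, and FKBP4, an immunophilin of steroid receptor complexes, by -0.28 and -0.83 (the first at -0.16 scaled to totals alone). In the direct comparison 9 of the 15 were higher with SGA360 than with SGA315 and 2 lower, with FKBP4 at 0.55 ± 0.04 SE (adjusted p = 5.41e-22).

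Of 8 listed other HSP70 family genes, 6 could be tested. With SGA360, 2 were higher and 3 lower, and with SGA315, 2 higher and 2 lower (2 and 2, and 3 and 2, scaled to totals alone). HSPA4L, a testis-rich HSP110 relative, rose with SGA360 (0.77 ± 0.11 SE, adjusted p = 3.97e-09) and was at 0.15 with SGA315 (adjusted p = 0.259). Scaled to totals alone, HSPA4L was called with SGA315 at 0.27, where the median of all genes was 0.16. HSPA12A fell with SGA360 (-0.32) and rose with SGA315 (0.16), and differed between the ligands (-0.47, adjusted p = 1.66e-13). Its changes were -0.20 and 0.28 when scaled to totals alone. HSPA4, another HSP110 relative, was called lower with both (-0.16 and -0.20), the first not when scaled to totals alone (-0.05, adjusted p = 0.129), where the second was -0.08.

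Of 14 other J-domain genes, 13 could be tested, and 7 were lower and 2 higher with SGA360 and 7 lower and 3 higher with SGA315. Scaled to totals alone, these became 4 lower and 5 higher, and 5 lower and 5 higher, so the balance of calls depended on the scaling. The list's medians were -0.08 and -0.10, against 0.02 and 0.04 over all genes. With scaling to totals alone they were 0.03 and 0.02, against 0.14 and 0.16, and so below the median of all genes under both scalings. DNAJA1, a cytosolic HSP70 partner, fell by 41.5% and 43.0%. DNAJB6, which restrains polyglutamine aggregates, fell by 39.0% and 23.9%, and DNAJC9, a histone-linked J-domain protein, by 29.8% and 33.5%.

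Of 8 HSP70 exchange factors and co-chaperones, 5 were lower and 1 higher with SGA360, and 5 lower and 2 higher with SGA315. Scaled to totals alone, SGA360 gave 3 lower and 3 higher, and SGA315 gave 5 lower and 3 higher. The list's medians were -0.197 and -0.345, or -0.083 and -0.225 scaled to totals alone. HSPBP1, an exchange factor, changed by -0.39 and -0.53, the ubiquitin ligase STUB1 by -0.27 and -0.45, and BAG3, a partner in selective autophagy, by -0.37 and -0.34. All 6 of these values were called. STUB1 with SGA360 was at -0.16, and BAG3 with SGA315 at -0.22, when scaled to totals alone.

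Only 3 of 8 other small heat shock genes could be tested. HSPB8, the partner of BAG3, rose by 58.1% with SGA360 (0.66 ± 0.05 SE, adjusted p = 1.13e-19) and was at 0.06 with SGA315 (adjusted p = 0.293). Scaled to totals alone, HSPB8 was called with SGA315 at 0.18, where the median of all genes was 0.16. IFT25, also known as HSPB11, fell with both (-0.59 and -0.87). CRYAB, at about 1 CPM, was not called with either. HSPB1 and HSPB8 therefore moved in opposite directions with SGA360.

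Of 14 other mitochondrial chaperones and proteases, 5 were higher and 5 lower with SGA360, and 7 higher and 4 lower with SGA315 (7 and 3, and 10 and 4, scaled to totals alone). LONP1, the matrix protease, rose with both (0.37 and 0.39). TRAP1, the mitochondrial HSP90, changed by -0.32 and -0.37, and GRPEL1, the exchange factor of mitochondrial HSP70, by -0.57 and -0.61, all called. TRAP1 was at -0.20 with SGA360 when scaled to totals alone. The list's median was 0.02 with SGA360 and 0.06 with SGA315, against 0.02 and 0.04 over all genes (0.13 and 0.18, against 0.14 and 0.16, scaled to totals alone), beside -0.40 and -0.28 for HSPD1 and -1.21 and -1.17 for HSPE1.

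The cytosolic chaperonin TRiC and its helper prefoldin had 13 tested subunits of 14, and 11 were lower and 1 higher with SGA360 and 10 lower and none higher with SGA315. Their medians were -0.25 and -0.32, and scaled to totals alone 9 were lower and 2 higher, then 8 lower and 3 higher, with medians of -0.14 and -0.19. CCT7 fell by 28.2% and 34.0%, CCT5 by 26.0% and 32.8%, and CCT3 by 23.9% and 23.7%. Of 12 other heat-inducible HSF1 targets, 10 could be tested, with 7 lower and 2 higher with SGA360 and 6 lower and 2 higher with SGA315. Scaled to totals alone, 6 were lower and 2 higher, then 5 lower and 3 higher. The medians were -0.30 and -0.22, or -0.19 and -0.10 scaled to totals alone. SERPINH1, the collagen chaperone HSP47, fell by 47.5% and 57.0%, the ubiquitin gene UBB by 26.1% and 15.4%, and TCP1, which is also a TRiC subunit, by 22.1% and 23.0%. UBB with SGA315 was at -0.24 on the log2 scale, and at -0.12 scaled to totals alone.

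**Figure D5:**
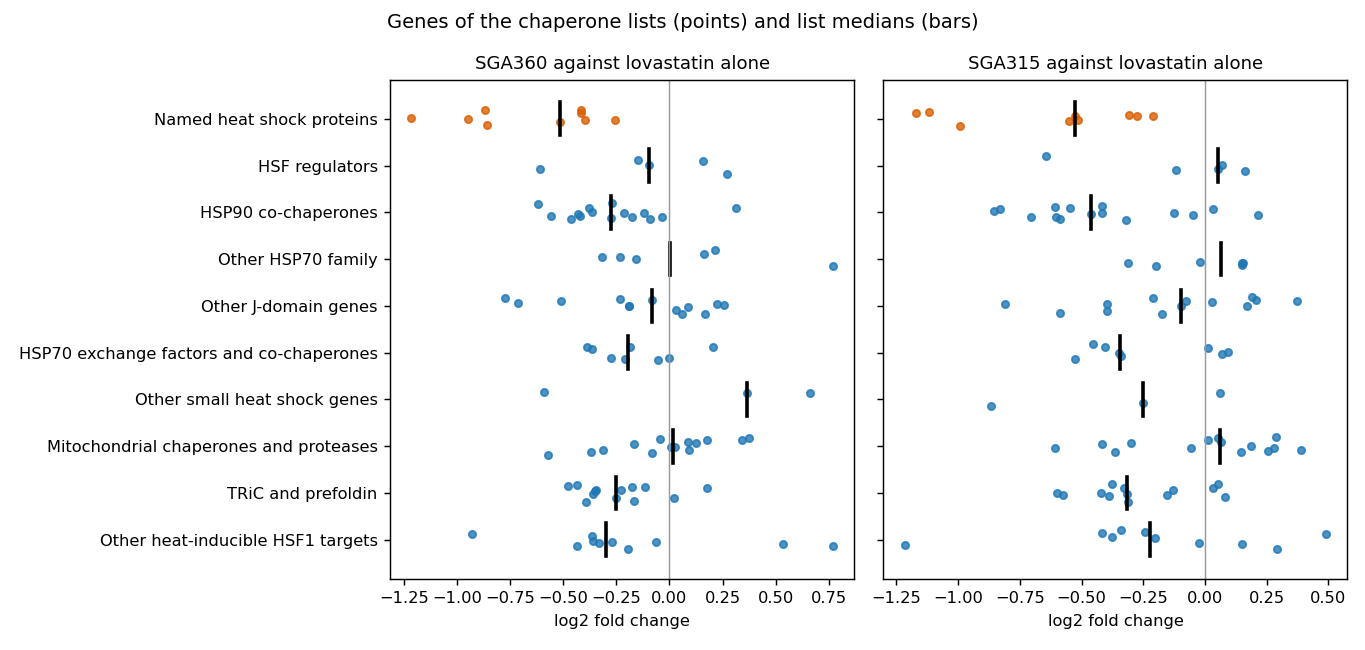
Log2 fold changes of every tested gene of the named members (top) and of the 9 chaperone lists (points) with list medians (bars), for SGA360 (left) and SGA315 (right) against lovastatin alone. All points of the named members lie below 0, while the mitochondrial list is spread around 0.

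Across the 9 libraries, the members also differed in how alike their patterns were. Pearson's r of log2 CPM was 0.996 for HSP90AA1 with HSPH1, 0.993 for HSP90AA1 with HSPE1 and for HSPA8 with HSPD1, and 0.969 for DNAJB1 with HSPB1, but 0.367 for HSP90AB1 with HSPB1. Among 8363 genes averaging 20 CPM or more, those most like HSP90AB1 were MMP1 (0.993), FN1, COL4A5, DDX23 and BCLAF1. Those most like HSPD1 were DPP4 (0.994), ATP2C1, HSPA8, SMARCC1 and ITGA6. These values describe 9 libraries that share 3 groups, so they largely restate the group means.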

How the data were processed

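The authors deposited raw counts, that is, unnormalised whole numbers for each RefSeq transcript entry in each library, per the file headers. The submitters' processing notes name hg19 as the build and HTSeq 0.5.4p3 and TopHat2 2.0.13 as tools, with no role. Strand handling, multiple matches and filters are not stated there or in the labels. Of 65325 entries, 64346 were named from RefSeq (GRCh38.p14) and 545 from GENCODE 29, and 434 unmatched entries (0.255% of counts) were left out. The entry with the highest total stood for each gene, since entries of a gene repeat shared reads. Of 29 sets of genes with identical counts (total of at least 50), 52 genes were dropped, which left 27668. The test was that of edgeR 4.0.16, run in R 4.3.3 (quasi-likelihood F test, TMM scaling, filterByExpr with minimum count 10 and minimum total 15, all 9 libraries, 1 coefficient per group, no covariate, Benjamini-Hochberg adjustment). It was first tried on simulated counts in which only a small part of the genes was changed. Since a large part was called here, that trial is no check of these calls. Levels are CPM, fold changes log2 with SE, and intervals 95%. Floors cover counting error only. Lengths came from GENCODE 29, and promoter sequences from RefSeq, GRCh38.p14. No coordinates of the authors' build are given.

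The 10 members and the lists were chosen with earlier results of these data known. Named genes were the members, AHR, up to 3 genes of each list with the smallest p over the ligand comparisons, and the 5 genes most correlated with the cytosolic and the mitochondrial member of highest mean CPM. Alternatives were RLE scaling, totals only, DESeq2 1.42.0, no filter, the compared groups only, a replicate block, each library left out, the lowest accession or the sum of entries per gene, and HSPA1A and HSPA1B summed. The value of 1 marker gene is not reported here.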

Additional observations from a re-analysis of the deposited data

How the results depend on the processing

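Counts of called genes and of called members changed by less than 1.5 times under every alternative run: 8 or 9 members with SGA360, 8 with SGA315, and 5 or 6 between the ligands. Of 462 values of single members, 454 kept their direction and their side of the threshold. The SGA360 call of HSPA1B was lost in 4 settings, of which the sum of entries gave -0.88 (adjusted p = 0.0632). HSPH1 between the ligands, which was never called, went from 0.01 to -0.01 without SGA360 replicate 3 (-0.0096), SGA315 replicate 1 (-0.0069) and SGA315 replicate 2 (-0.0071). Over all libraries left out, it ranged from -0.0096 to 0.042, and the cause was not tested.

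With the replicate number as a block, 9338, 10270 and 6436 genes were called with SGA360, SGA315 and between the ligands, beside 9208, 10159 and 6259 without it, and 9, 8 and 5 members were called, as without it. Deviations from the group means correlated at -0.02 to 0.04 between same-numbered libraries of different groups, and at -0.05 to 0.03 between differently numbered ones. Both ranges were small, but counting error can hide a pairing, and the labels do not say whether the numbers pair libraries. With 1 count in all, HSPA1A could not be tested, and for HSPA1B a large difference remains within the intervals.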
